A study of Homo sapiens with 12 samples.

Results

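Leukocyte integrins and the selectin ligand that precedes them in adhesion were examined in the HL-60/S4 cell line: the integrin α subunits *ITGAM*, *ITGAX*, *ITGAL* and *ITGA4*, the β subunits *ITGB2*, *ITGB1* and *ITGB7*, the selectin ligand *SELPLG*, and *FERMT3*, which activates integrins. These 9 genes were chosen by name from the 58288 genes of the count table, by matching each Ensembl identifier to its symbol, and all 9 were found. HL-60/S4 is an established human promyelocytic leukemia line. The 12 libraries fell into 4 groups of 3, since undifferentiated promyelocytes and granulocytes each received either the vehicle, water, or 16 ng/mL TNF-α for 2 h. Granulocytes were the same line after 4 days in 1 µM all-trans retinoic acid (ATRA), which remained present during the treatment. All cells were listed with 8 passages in calcium-supplemented medium and came from 1 line, so the groups do not differ in donor. The cell types were run as separate experiments, and the paper gives a higher cell density for undifferentiated than for differentiated cultures.

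Leukocytes leave the blood in steps: selectins on the vessel wall catch sugars carried by PSGL-1, the product of *SELPLG*, and the cells roll, after which integrins are switched from a low to a high affinity state and hold the cells firmly. An integrin is a pair of 1 α and 1 β subunit. The β2 subunit pairs with αL to give LFA-1, with αM to give Mac-1 and with αX to give p150,95, all of which bind ICAM proteins or complement fragments, while α4 pairs with β1 to give VLA-4, which binds VCAM-1, and with β7 to give the gut-homing receptor that binds MAdCAM-1. Kindlin-3, the product of *FERMT3*, binds the tail of β subunits together with talin and is needed for activation in blood cells.

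The deposited values are raw counts of read pairs per gene, and the library totals ranged from 22829189 to 31895061. Levels are given as normalized counts (CPM), scaled to library sizes by the TMM method over all 12 libraries, with the mean ± SD of 3 libraries where an error is given. A log2 fold change sets TNF-α against vehicle within 1 cell type. Genes with an adjusted p (Benjamini-Hochberg) below 0.05 in the quasi-likelihood test of edgeR were called changed. Each library came from its own flask. An exact two-sided permutation test of 3 libraries against 3 cannot give a p below 0.1, so each test draws on the spread that edgeR shares between genes. In whole cultures, fewer cells of a type and less RNA per cell cannot be told apart. Summed TPM (counts scaled to gene length and library) over 5 promyelocyte markers was 8186 to 8450 in vehicle-treated promyelocytes and 2348 to 2554 in vehicle-treated granulocytes, with *ELANE* at 0 or 1 count in the latter, and over 7 granulocyte markers it was 103 to 108 and 3430 to 3587. With TNF-α the granulocyte markers summed to 173 to 199.5 TPM in promyelocytes and 3421 to 3526 in granulocytes, and the promyelocyte markers to 6475 to 7680 and 1967 to 2152. On the TPM scale the median of all genes tested in granulocytes itself moved by -0.24 log2 with TNF-α. In CPM the granulocyte means with vehicle and TNF-α were 2020 and 1986 for *MPO* and 178 and 197 for *PRTN3*. Single markers were called in both directions: *NCF1* rose by 1.25 in promyelocytes and by 0.67 in granulocytes on the log2 scale, while *CXCR2* fell by 0.95 and by 1.77. *CSF3R* fell by 0.45 in promyelocytes and by 0.31 in granulocytes, and *FPR1* rose by 0.51 in granulocytes. *MPO* fell by 0.23, *PRTN3* by 0.30 and *CTSG* by 0.25 in promyelocytes, none of them called in granulocytes, and *CYBB* rose by 0.96 in promyelocytes and *CD38* fell by 0.19 in granulocytes. Of 5 monocyte and macrophage markers, 3 had at most 3 counts in every library, and the list summed to 1.99 to 3.01 TPM in promyelocytes. In granulocytes it summed to 31.1 to 32.9 TPM with vehicle and to 17.4 to 18.1 TPM with TNF-α, nearly all of it *CSF1R*, which fell there by 0.64 on the log2 scale (edgeR adjusted p = 3.02e-11). Lymphoid markers summed to 4.38 to 7.09 TPM and erythroid and megakaryocyte markers to 0.25 to 3.23 TPM. The part of these shifts in the results was not tested.

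*ITGAL*, *ITGAM* and *ITGAX* lie on the plus strand of chromosome 16 (hg38, GENCODE v27), at 30472658 to 30523185, 31259990 to 31332892 and 31355134 to 31382997. The gap between *ITGAM* and *ITGAX* is 22241 bases. *ITGB2* is on the minus strand of chromosome 21 at 44885953 to 44931989, *ITGA4* on the plus strand of chromosome 2 at 181457202 to 181536187 and *ITGB1* on the minus strand of chromosome 10 at 32900319 to 33005792. *ITGB7* and *SELPLG* are on the minus strand of chromosome 12, at 53191318 to 53207307 and at 108622277 to 108633959, and *FERMT3* is on the plus strand of chromosome 11 at 64206678 to 64223886. No exon of the 9 genes overlapped an exon of another gene on its own strand. Of the exonic bases of *ITGB7*, 42.1% also lie in exons of *ZNF740* on the other strand, from which the strand-specific counting set them apart.

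The set of RefSeq promoters at hand (GRCh38.p14) held the 250 bases before a start site for 5 of the 9 genes, *ITGAM*, *ITGA4*, *ITGB1*, *ITGB7* and *FERMT3*. It held no entry for *SELPLG*, *ITGAX*, *ITGAL* and *ITGB2*, whose promoters were not searched. The available stretches were searched on both strands for the core bound by the myeloid factor PU.1, AGGAAG, which 28.7% of 35116 such stretches hold. They were also searched for the kappa-B consensus bound by NF-κB, a factor that TNF-α activates, which 9.96% hold. The stretches of *FERMT3*, which rose most in granulocytes, and of *ITGAM*, the α subunit of Mac-1, are shown because these 2 held the most PU.1 cores. They are chr11:64206471-64206677 and chr16:31259725-31259974, both on the plus strand and 5′ to 3′, and end before the gene start in both annotations. Capitals mark the matches, of which the 10-base one in *FERMT3* is the kappa-B consensus and the 6-base ones are PU.1 cores on either strand.
FERMT3: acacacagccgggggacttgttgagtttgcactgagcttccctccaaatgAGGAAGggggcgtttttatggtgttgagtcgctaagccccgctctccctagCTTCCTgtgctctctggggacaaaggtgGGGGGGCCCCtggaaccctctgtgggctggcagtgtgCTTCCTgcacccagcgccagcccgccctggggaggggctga
ITGAM: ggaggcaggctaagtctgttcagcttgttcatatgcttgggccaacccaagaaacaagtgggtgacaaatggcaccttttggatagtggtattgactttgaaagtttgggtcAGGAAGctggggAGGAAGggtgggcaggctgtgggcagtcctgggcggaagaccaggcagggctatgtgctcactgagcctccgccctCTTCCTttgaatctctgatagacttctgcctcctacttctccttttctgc
This window of *FERMT3* held 3 PU.1 cores and 1 kappa-B match, none of them overlapping, and a window at a second start site, not shown, held 1 of each, and *ITGAM* 3 PU.1 cores and no kappa-B match. The window of *ITGB7* held 1 PU.1 core and that of *ITGA4* neither motif. *ITGB1* had windows at 2 start sites, 1 of which held 1 kappa-B match and 1 PU.1 core. A match describes these letters and does not show that a factor bound.

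Without TNF-α, the mean of each of the 9 genes was higher in granulocytes than in promyelocytes, from 58.8-fold for *ITGB7* to 1.18-fold for *ITGA4*. The cell types were treated in separate experiments, so cell type and experiment cannot be told apart and these level differences were not tested. On the log2 scale 5 of the 9 differed by at least 1, without overlap between the groups: *ITGB7* by 5.87, *ITGAM* by 5.54, *ITGAX* by 4.80, *ITGB2* by 2.75 and *SELPLG* by 1.08. Of all 18124 genes fitted, 19.0% stood at least as far above with no overlap between the groups and 15.6% as far below. The remaining 4 differed by 0.97 (*ITGAL*), 0.65 (*ITGB1*), 0.49 (*FERMT3*) and 0.23 (*ITGA4*), against a median of 0.01 over all genes.

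The largest distances belonged to genes that promyelocytes hardly expressed. *ITGB7*, the gut-homing β subunit, stood at 5.91, 4.42 and 4.18 CPM in the vehicle-treated promyelocyte libraries, from 120 to 181 counts, and at 283, 274 and 295 CPM in the granulocyte libraries. *ITGAM* stood at 5.88, 6.81 and 6.53 CPM in promyelocytes and at 287.5, 302 and 304 in granulocytes, a ratio of means of 46.5. *ITGAX*, the α subunit of p150,95, stood at 4.35, 4.93 and 4.87 CPM in promyelocytes and at 132, 132 and 130.4 in granulocytes, a ratio of 27.9. In contrast *ITGA4*, the α subunit of VLA-4, was already at 419 to 445 CPM in promyelocytes and only a little higher, at 485 to 524, in granulocytes.

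**Figure D1:**
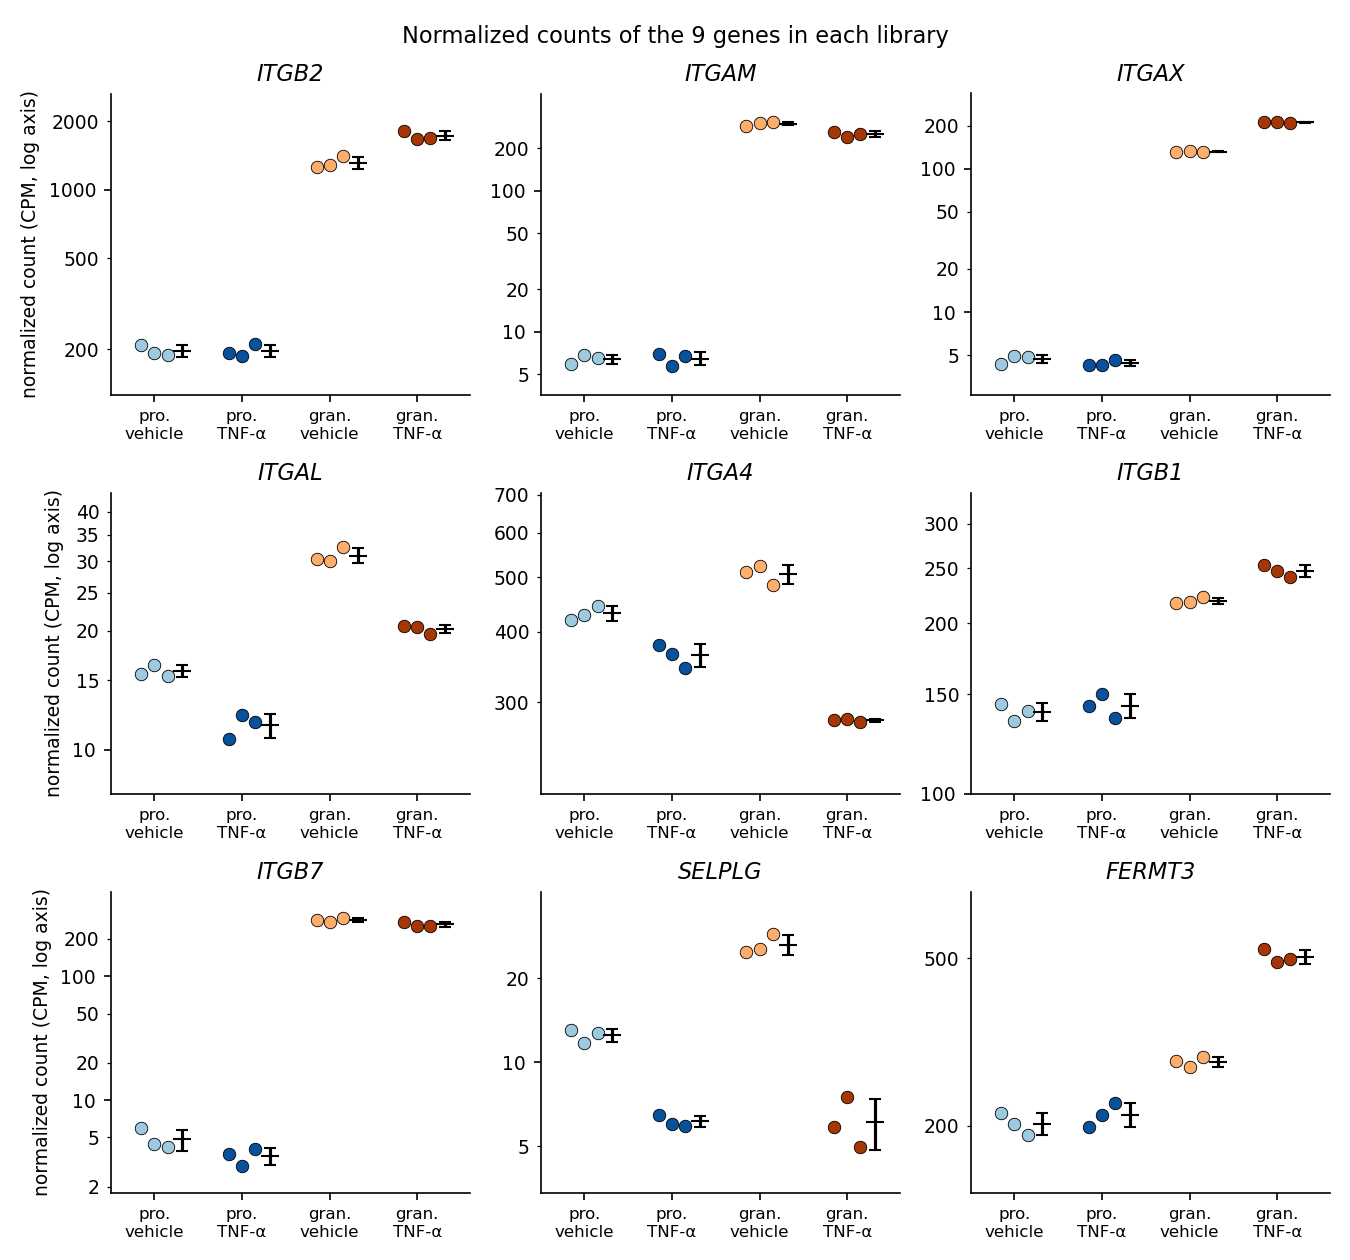
Normalized counts (CPM, log axis) of the 9 genes in each of the 12 libraries, with the mean and SD of 3 libraries to the right of each group (pro., promyelocytes; gran., granulocytes). *ITGAM*, *ITGAX*, *ITGB7* and *ITGB2* are set apart by cell type, whereas the *SELPLG* libraries with TNF-α lie between 4.98 and 7.49 CPM in both cell types, below all of their vehicle libraries.

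Ranked by TPM, which corrects for gene length, vehicle-treated promyelocytes held *FERMT3* at 189.9 ± 5.27, *ITGA4* at 158 ± 12.1, *ITGB2* at 83.2 ± 0.74, *ITGB1* at 66.9 ± 2.25, *SELPLG* at 14.5 ± 0.71, *ITGAL* at 7.06 ± 0.481, *ITGAM* at 3.27 ± 0.391, *ITGB7* at 3.10 ± 0.435 and *ITGAX* at 1.93 ± 0.223 TPM (SD, n = 3). Neighbours in this order were apart in all libraries except *ITGAM* and *ITGB7*, whose libraries overlapped. In vehicle-treated granulocytes the order was *ITGB2* (636 ± 31.5 TPM), *FERMT3* (304 ± 2.79), *ITGA4* (211 ± 12.2), *ITGB7* (208 ± 4.01), *ITGAM* (172.5 ± 5.80), *ITGB1* (119.6 ± 1.5), *ITGAX* (61.0 ± 1.61), *SELPLG* (34.7 ± 2.30) and *ITGAL* (15.7 ± 0.427). There the overlapping neighbours were *ITGA4* and *ITGB7*. With TNF-α, granulocytes held *SELPLG* last, at 6.72 ± 1.20 TPM, under *ITGAL* at 8.60 ± 0.212, and *ITGA4*, at 97.2 ± 4.32, had passed below *ITGB1*, at 113 ± 3.15. In promyelocytes the order was the same with and without TNF-α, although *ITGB7* (2.36 ± 0.419 TPM) then overlapped *ITGAX* (1.85 ± 0.114) in place of *ITGAM* (3.42 ± 0.524).

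After 2 h of TNF-α all 9 genes were called changed in granulocytes, 4 higher and 5 lower. *FERMT3*, *ITGAX*, *ITGB2* and *ITGB1* rose, and *SELPLG*, *ITGA4*, *ITGAL*, *ITGAM* and *ITGB7* fell. Of the 16944 genes tested in granulocytes 49.2% were called, 24.4% as higher and 24.8% as lower. In promyelocytes 3 of the 9 were called, all lower: *SELPLG*, *ITGAL* and *ITGA4*. The background in promyelocytes was 14.8% of 16250 genes, with 8.15% higher and 6.65% lower. These same 3 genes fell in both cell types. The share of all genes called lower in both is not given here, and the paper reports that the responses share more genes than by chance. The median log2 fold change of the 9 genes was -0.13 in granulocytes and -0.08 in promyelocytes, beside 0 and -0.01 over all genes tested.

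*SELPLG*, which encodes PSGL-1, changed most of the 9 in both cell types. In granulocytes it stood at 24.9, 25.5 and 28.8 CPM with vehicle and at 5.88, 7.49 and 4.98 CPM with TNF-α. Every treated library was below every vehicle library, and the counts fell from 646 to 859 read pairs to 110 to 209. The log2 fold change was -2.11 (SE 0.103, edgeR adjusted p = 1.5e-19), so the level fell by 76.8%. In promyelocytes the libraries stood at 13.1, 11.7 and 12.7 CPM with vehicle and at 6.47, 6.0 and 5.93 CPM with TNF-α. The groups were again apart, and the log2 fold change was -1.01 (SE 0.108, edgeR adjusted p = 8.48e-07). Between the cell types the responses differed by -1.06 (SE 0.161, edgeR interaction adjusted p = 1.43e-05). Each cell type was treated in its own experiment, so here and below cell type and experiment cannot be told apart in a difference of the responses. With vehicle the level in granulocytes was 2.11 times that in promyelocytes, while the treated means were 6.11 ± 1.27 CPM in granulocytes and 6.13 ± 0.296 CPM in promyelocytes.

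Of the α subunits that pair with β2, *ITGAX* rose in granulocytes while *ITGAM* and *ITGAL* fell. *ITGAX* stood at 132, 132 and 130.4 CPM with vehicle and at 212, 211 and 209 CPM with TNF-α. The groups were far apart for their spread, with SDs of 1.04 and 1.35 CPM, and the log2 fold change was 0.67 (SE 0.0471, edgeR adjusted p = 9.27e-15). *ITGAM* stood at 287.5, 302 and 304 CPM with vehicle and at 261.5, 241 and 253 CPM with TNF-α. All treated libraries were lower, by a log2 fold change of -0.26 (SE 0.0489, edgeR adjusted p = 3.39e-05). *ITGAL*, the least abundant of the 3 in granulocytes, stood at 30.45, 30.03 and 32.57 CPM with vehicle and at 20.6, 20.4 and 19.6 CPM with TNF-α, again apart, with a log2 fold change of -0.63 (SE 0.069, edgeR adjusted p = 8.03e-10). The adjacent genes *ITGAM* and *ITGAX* therefore moved in opposite directions in granulocytes.

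In promyelocytes only *ITGAL* of these 3 α subunits passed the test. It stood at 15.6, 16.4 and 15.4 CPM with vehicle and at 10.7, 12.2 and 11.8 CPM with TNF-α. Every treated library was lower, with a log2 fold change of -0.43 (SE 0.0929, edgeR adjusted p = 0.00286). *ITGAM* (log2 fold change 0.04, SE 0.131, edgeR adjusted p = 0.883) and *ITGAX* (-0.08, SE 0.146, edgeR adjusted p = 0.78) overlapped between treatments, from 159 to 213 and from 114 to 147 counts per library. The responses of the cell types differed for *ITGAX* (0.78, SE 0.105, edgeR interaction adjusted p = 3.07e-06). For *ITGAL* it was -0.17 (SE 0.108, edgeR interaction adjusted p = 0.296), and for *ITGAM* -0.26 (SE 0.109, edgeR interaction adjusted p = 0.0859), where the adjusted p was 0.027 without promyelocyte TNF-α replicate 2, 0.0416 with DESeq2's size factors and 0.00514 with each library's GC and length trends taken out. Of all 18124 genes in that fit, 24.0% were called for a difference of the responses, 2561 with a positive and 1790 with a negative difference, granulocytes minus promyelocytes, and with DESeq2's size factors the split was 2128 to 2266. A negative difference includes genes that fell further in granulocytes.

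*ITGB2*, the shared β2 subunit and the most abundant of the 9 in granulocytes, stood there at 1253, 1289.8 and 1409 CPM with vehicle and at 1815, 1675 and 1687 CPM with TNF-α. The groups did not overlap, and the log2 fold change was 0.38 (SE 0.0544, edgeR adjusted p = 3.38e-07). On the TPM scale the libraries overlapped, at 605 to 668 with vehicle and 663 to 723 with TNF-α, a log2 ratio of means of 0.14 where the median of all genes tested was -0.24. In promyelocytes it stood at 209, 192 and 187.5 CPM with vehicle and at 191, 187 and 210.1 CPM with TNF-α. These libraries overlapped, with a log2 fold change of 0.02 (SE 0.0606, edgeR adjusted p = 0.844). The difference of the responses was 0.39 (SE 0.0855, edgeR interaction adjusted p = 0.00114), but 0.15 (edgeR adjusted p = 0.102) with the GC and length trends removed.

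**Figure D2:**
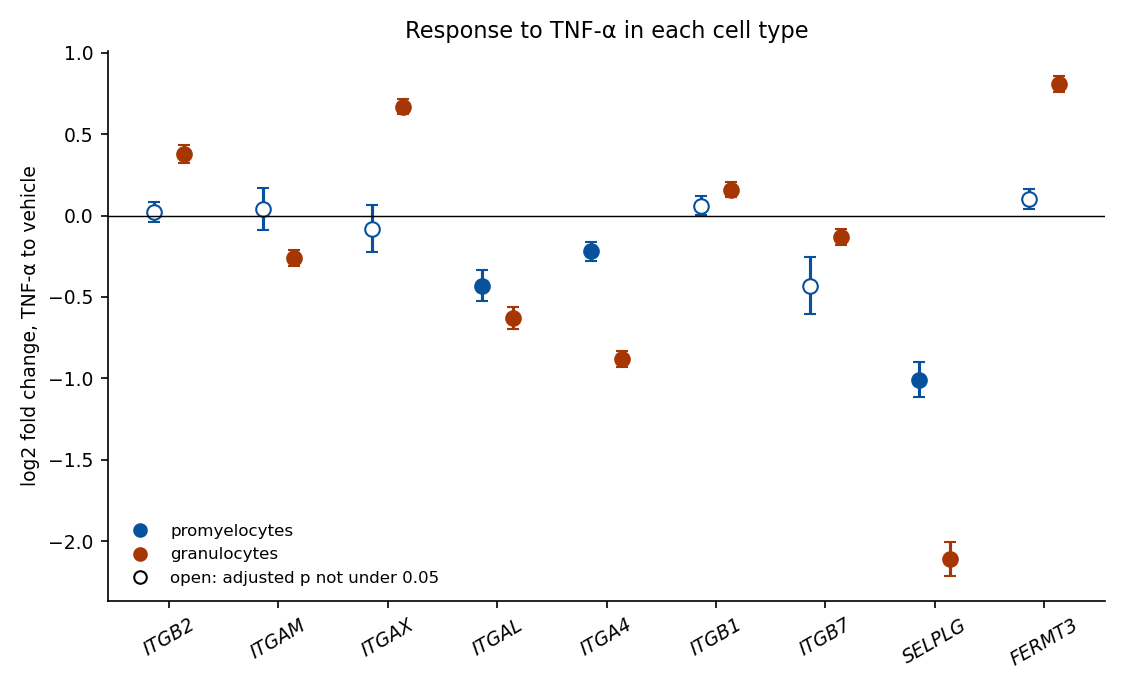
Log2 fold change from vehicle to TNF-α of each gene in promyelocytes (blue) and granulocytes (red), with bars of 1 SE from edgeR and open circles for genes not called. *SELPLG* falls in both cell types, by 1.01 and 2.11, whereas *ITGAX* and *FERMT3* rise in granulocytes, by 0.67 and 0.81, and stay near 0 in promyelocytes.

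*FERMT3*, which encodes kindlin-3, rose most of the 9 in granulocytes. It stood at 285, 276 and 291 CPM with vehicle and at 526, 488 and 496 CPM with TNF-α. No library overlapped, and the log2 fold change was 0.81 (SE 0.049, edgeR adjusted p = 8.99e-17), a rise of 75.6%. In promyelocytes it stood at 214, 202 and 189.6 CPM with vehicle and at 198.5, 212 and 226.5 CPM with TNF-α, which overlapped, with a log2 fold change of 0.10 (SE 0.0615, edgeR adjusted p = 0.339). With the GC and length trends removed this was 0.21 (edgeR adjusted p = 0.00216), the only setting tried in which it was called. On the TPM scale the promyelocyte groups were apart, at 185 to 195 with vehicle and 198 to 216 with TNF-α. The difference of the responses was 0.75 (SE 0.0808, edgeR interaction adjusted p = 6.5e-08).

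Of the α4 integrins, *ITGA4* fell in both cell types, and further in granulocytes. There it stood at 511, 524 and 485 CPM with vehicle and at 279, 280.1 and 277 CPM with TNF-α. The groups were far apart, with a log2 fold change of -0.88 (SE 0.049, edgeR adjusted p = 9.42e-18), so the level fell by 45.5%. In promyelocytes it stood at 419, 429 and 445 CPM with vehicle and at 379, 366 and 345 CPM with TNF-α. These groups did not overlap either, although on the TPM scale they did, and the log2 fold change was -0.22 (SE 0.0588, edgeR adjusted p = 0.0126), a call that was lost without vehicle replicate 2, vehicle replicate 3 or TNF-α replicate 3 (-0.23, -0.19 and -0.18). The difference of the responses was -0.61 (SE 0.073, edgeR interaction adjusted p = 3.56e-07).

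Of the 2 β partners of α4, *ITGB1* stood in granulocytes at 217, 218 and 222 CPM with vehicle and at 253, 248 and 241 CPM with TNF-α. The groups were apart, with a log2 fold change of 0.16 (SE 0.0473, edgeR adjusted p = 0.00467). On the TPM scale, where the median of all genes tested in granulocytes moved by -0.24 with TNF-α, the *ITGB1* libraries fell from 118 to 121 down to 111 to 117 TPM, so its direction depends on the scaling. Relative to that median *ITGB1*, at -0.08, still lay above it. In promyelocytes it was not called (0.06, SE 0.0584, edgeR adjusted p = 0.548), and the difference of the responses was 0.14 (SE 0.0726, edgeR interaction adjusted p = 0.183).

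*ITGB7* stood in granulocytes at 283, 274 and 295 CPM with vehicle and at 276, 256 and 255 CPM with TNF-α. On the CPM scale it was the only one of the 9 whose groups overlapped there. On the TPM scale, where the median of all genes tested moved by -0.24, its groups were apart, at 204 to 212 with vehicle and 154 to 166 with TNF-α. The log2 fold change of *ITGB7* was -0.13 (SE 0.0493, edgeR adjusted p = 0.0274). The call was lost without vehicle replicate 3, TNF-α replicate 2 or TNF-α replicate 3 (-0.10, -0.11 and -0.10). In promyelocytes it stood at 5.91, 4.42 and 4.18 CPM with vehicle and at 3.65, 2.93 and 4.00 CPM with TNF-α. All treated libraries were lower, but on 82 to 181 counts the log2 fold change of -0.43 (SE 0.173, edgeR adjusted p = 0.11) was not called; in 1 fit of all 12 libraries it was -0.46 (edgeR adjusted p = 0.0152). The responses differed by 0.34 (SE 0.145, edgeR interaction adjusted p = 0.0924), which passed the threshold without promyelocyte vehicle replicate 3 (0.44) or promyelocyte TNF-α replicate 3 (0.45).

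The unequal changes altered the make-up of the integrin transcripts within each library, which was compared as shares of TPM and does not depend on the scaling between libraries. Among the α subunits that pair with β2 (*ITGAL*, *ITGAM*, *ITGAX* and the nearly silent *ITGAD*), vehicle-treated promyelocytes held 57.6 ± 1.44% *ITGAL*, 26.6 ± 0.967% *ITGAM* and 15.7 ± 0.605% *ITGAX*. Vehicle-treated granulocytes held 6.31 ± 0.239% *ITGAL*, 69.2 ± 0.591% *ITGAM* and 24.5 ± 0.608% *ITGAX*. The transcript for LFA-1 thus led in promyelocytes and that for Mac-1 in granulocytes, in each of the 3 libraries.

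With TNF-α the *ITGAX* share in granulocytes was 38.5 ± 0.903%, at 37.8, 39.5 and 38.3% in the 3 libraries against 25.1, 24.4 and 23.9% with vehicle. The *ITGAM* share was 57.4 ± 1.01% and the *ITGAL* share 4.04 ± 0.129%, each below all vehicle libraries. The ratio of *ITGAM* to *ITGAX* transcripts went from 2.83 ± 0.0923 to 1.49 ± 0.0606. In promyelocytes the *ITGAL* share was 50.2 ± 3.52% with TNF-α, lower in all 3 libraries, while *ITGAM* took 32.1 ± 3.31% and *ITGAX* 17.5 ± 0.395%, both higher in all 3. Summed over these α subunits, TPM was 0.393 ± 0.0178 of that of *ITGB2* in vehicle-treated granulocytes and 0.305 ± 0.00733 with TNF-α, against 0.147 ± 0.0131 and 0.123 ± 0.00464 in promyelocytes, with the treated libraries lower in both cell types.

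**Figure D3:**
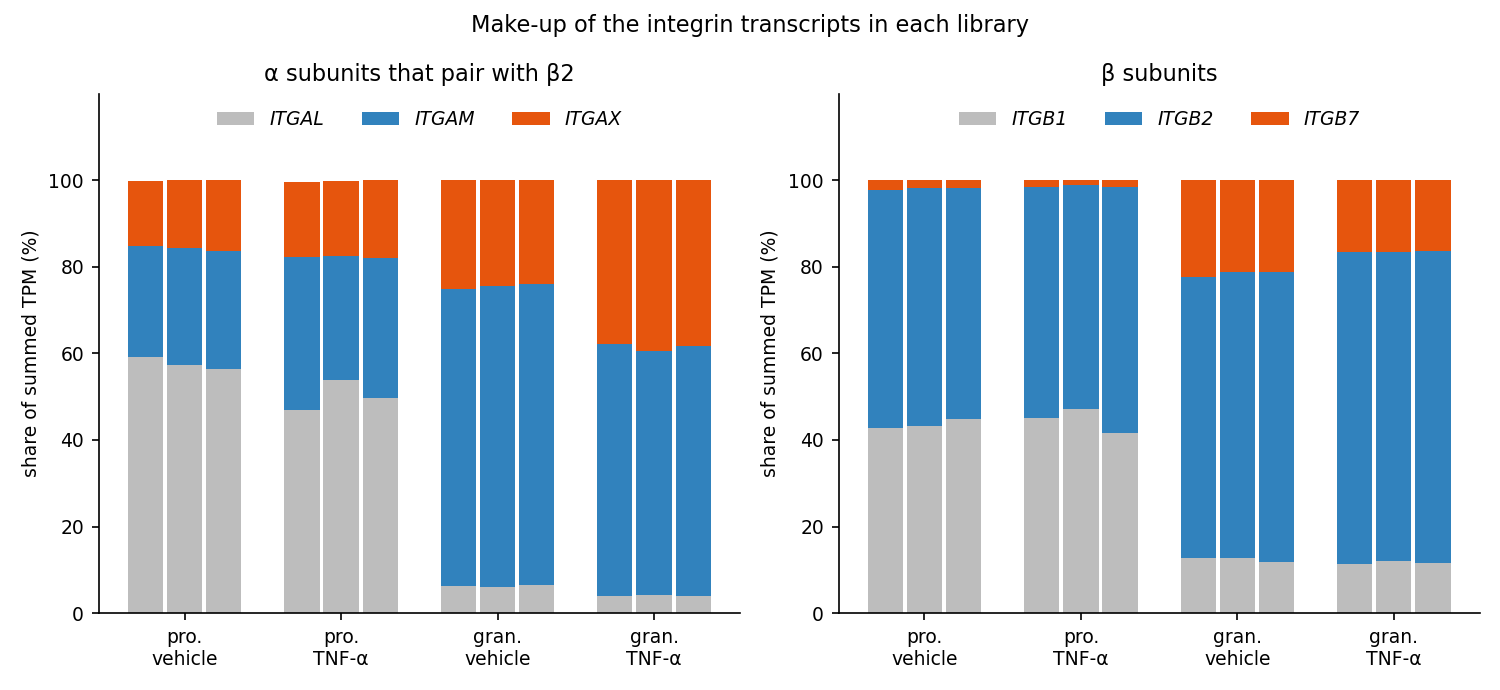
Share of the summed TPM taken by each α subunit that pairs with β2 (left) and by each β subunit (right), 1 bar per library in 4 groups of 3; *ITGAD*, at most 0.487%, is part of the left sum but not drawn. In granulocytes *ITGAX* widens from 24.5% to 38.5% of the α subunits with TNF-α and *ITGB2* from 66.0% to 71.8% of the β subunits.

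Among *ITGB1*, *ITGB2* and *ITGB7*, the β2 share in granulocytes was 66.0 ± 0.922% with vehicle and 71.8 ± 0.280% with TNF-α, the β7 share 21.6 ± 0.594% and 16.6 ± 0.0819%, and the β1 share 12.4 ± 0.431% and 11.7 ± 0.297%. The β2 and β7 shares were apart between the treatments, and the β1 shares overlapped. In promyelocytes β2 (54.3 ± 0.907%) and β1 (43.7 ± 1.12%) made up nearly all of the sum with vehicle, and β7 took 2.02 ± 0.295% with vehicle and 1.47 ± 0.214% with TNF-α. The ratio of *ITGA4* to *ITGB1* transcripts, which together make VLA-4, was 1.76 ± 0.0903 in vehicle-treated granulocytes and 0.858 ± 0.0176 with TNF-α, and in promyelocytes 2.36 ± 0.123 and 1.93 ± 0.0829, with no overlap in either cell type.

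The rest of the pathway was read from lists of other genes, none of them tested as a list. Of 19 other integrin subunits, 11 were tested in granulocytes, of which 3 rose and 1 fell (median log2 fold change 0.28), beside 24.4% and 24.8% of all genes, and 8 in promyelocytes, of which 1 fell and none rose (median -0.05), beside 6.65% and 8.15%. *ITGA6*, the α6 subunit of laminin receptors, rose in granulocytes from 46.4, 47.7 and 48.0 CPM to 348, 351 and 363.5 CPM, a log2 fold change of 2.89 (SE 0.0522, edgeR adjusted p = 2.75e-33). In promyelocytes it was at 20.4 to 22.4 CPM with vehicle and 19.0 to 22.3 with TNF-α, and the difference of the responses was 3.01 (edgeR interaction adjusted p = 8.45e-19). Its change in granulocytes was larger in size than that of any of the 9 genes. *ITGA5*, the α subunit of the fibronectin receptor, fell in promyelocytes (-0.35, edgeR adjusted p = 0.000238) and was at -0.01 in granulocytes. *ITGA9* fell in granulocytes from 110 to 126 counts to 34 to 48 (-1.26, edgeR adjusted p = 5.31e-07), while *ITGB8*, called higher at 1.73, overlapped between 5 to 15 and 15 to 52 counts. *ITGAE*, the partner of β7 in epithelial lymphocytes, stood at 3.06 to 3.65 mean TPM in the 4 groups and was not called in either cell type.

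Genes that regulate integrins in either direction, associate with them or link them to actin (the activation list) were called both higher and lower. In granulocytes 11 of 27 tested rose and 7 fell (median 0.09), beside 24.4% and 24.8% of all genes. In promyelocytes 3 of 27 rose and 6 fell (median -0.08), beside 8.15% and 6.65%. The largest changes in granulocytes were the rises of the tetraspanin *CD82* (1.75, SE 0.0787, edgeR adjusted p = 1.2e-20), of filamin A, *FLNA*, which competes with talin for β tails (1.36, SE 0.053, edgeR adjusted p = 1.34e-22), and of the parvin *PARVB* (1.23, SE 0.0701, edgeR adjusted p = 1.61e-17). Smaller rises there included *RAPGEF1* (0.79), *RASSF5* (0.51), *ITGB1BP1* (0.45), *CYTH1* (0.43), *RAP1B* (0.31) and *PXN* (0.18). On the TPM scale the *PXN* mean in granulocytes was 171 with vehicle and 164 with TNF-α, so its direction depends on the scaling. The 7 that fell in granulocytes were *FYB1* (-0.98), *APBB1IP* (-0.75), *TLN2* (-0.60), *CD47* (-0.52), *VCL* (-0.50), *SKAP2* (-0.29) and *PARVG* (-0.19). In promyelocytes *CD82* rose by 0.55 (edgeR adjusted p = 8.57e-06), and *FLNA* (0.14) and *PARVB* (0.09) were not called. Talin itself, *TLN1*, was not called in granulocytes (-0.06, edgeR adjusted p = 0.398) or promyelocytes (-0.18, edgeR adjusted p = 0.0832), unlike its partner *FERMT3* in granulocytes. *ZYX*, a focal-adhesion protein, rose in granulocytes (0.37, edgeR adjusted p = 3.66e-06) and fell in promyelocytes (-0.36, edgeR adjusted p = 0.0026), with a difference of 0.77 (edgeR interaction adjusted p = 1.56e-05). The tetraspanin *CD63* rose in granulocytes by 0.29 (edgeR adjusted p = 3.52e-06) and was at -0.03 in promyelocytes.

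PSGL-1 binds selectins only once enzymes have built sialyl Lewis x on it. Of these enzymes and transporters, 5 of 16 tested rose and 7 fell in granulocytes (median -0.01), and 3 of 18 rose and 6 fell in promyelocytes (median -0.05), beside the same shares of all genes. *FUT7*, a fucosyltransferase that completes the structure, fell in promyelocytes from 14.54, 14.35 and 13.02 CPM to 5.72, 6.97 and 5.42 CPM, a log2 fold change of -1.19 (SE 0.114, edgeR adjusted p = 1.85e-07). In granulocytes it had 0 to 4 counts in every library with or without TNF-α and was not tested. *FUT4*, another fucosyltransferase acting on such chains, rose in both, by 1.38 in granulocytes (SE 0.051, edgeR adjusted p = 2.3e-23) and by 0.56 in promyelocytes (SE 0.0557, edgeR adjusted p = 3.27e-07). The most abundant others were the sialyltransferase *ST3GAL4*, the galactosyltransferase *B4GALT1* and *GALNT1*, which starts O-glycans. *ST3GAL4* was at 0.54 in granulocytes (edgeR adjusted p = 6.9e-12) and at 0.01 in promyelocytes. *B4GALT1* was at 0.46 (edgeR adjusted p = 7.77e-10) and 0.35 (edgeR adjusted p = 0.00101), and *GALNT1* at 0.17 (edgeR adjusted p = 0.00295) and 0.16 (edgeR adjusted p = 0.0763). On the TPM scale the *GALNT1* mean in granulocytes was 84.4 with vehicle and 80.6 with TNF-α, so its direction there depends on the scaling. The 7 that fell in granulocytes were *GCNT1* (-0.84), *TPST2* (-0.83), *GALNT3* (-0.73), *B3GNT2* (-0.63), *C1GALT1* (-0.49), *C1GALT1C1* (-0.48) and *ST3GAL6* (-0.25).

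Among selectins and other selectin ligands, 4 of 7 tested rose (2 without vehicle replicate 1) and 2 fell in granulocytes (median 0.16), beside 24.4% and 24.8% of all genes, and 2 of 6 rose in promyelocytes (median -0.08), beside 8.15%. *CD44*, which carries the E-selectin ligand HCELL when glycosylated, moved opposite to *SELPLG*. It rose in granulocytes from 33.6, 34.0 and 35.1 CPM to 233, 222 and 221.5 CPM (log2 fold change 2.71, SE 0.053, edgeR adjusted p = 3.84e-32) and in promyelocytes from 191 to 199.8 CPM to 281 to 327 CPM (0.63, SE 0.0626, edgeR adjusted p = 3.19e-07). The sialomucin *SPN* rose by 0.16 in granulocytes (edgeR adjusted p = 0.00939) and was at -0.17 in promyelocytes, and *GLG1*, an E-selectin ligand, was not called in either. *CD34* had 0 to 2 counts in the vehicle-treated granulocyte libraries and 48 to 66 with TNF-α, at least 21.7-fold higher against a floor of 3 counts per library (edgeR adjusted p = 3.24e-12), and 2 to 4 counts against 19 to 27 in promyelocytes (edgeR adjusted p = 0.000185).

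**Figure D4:**
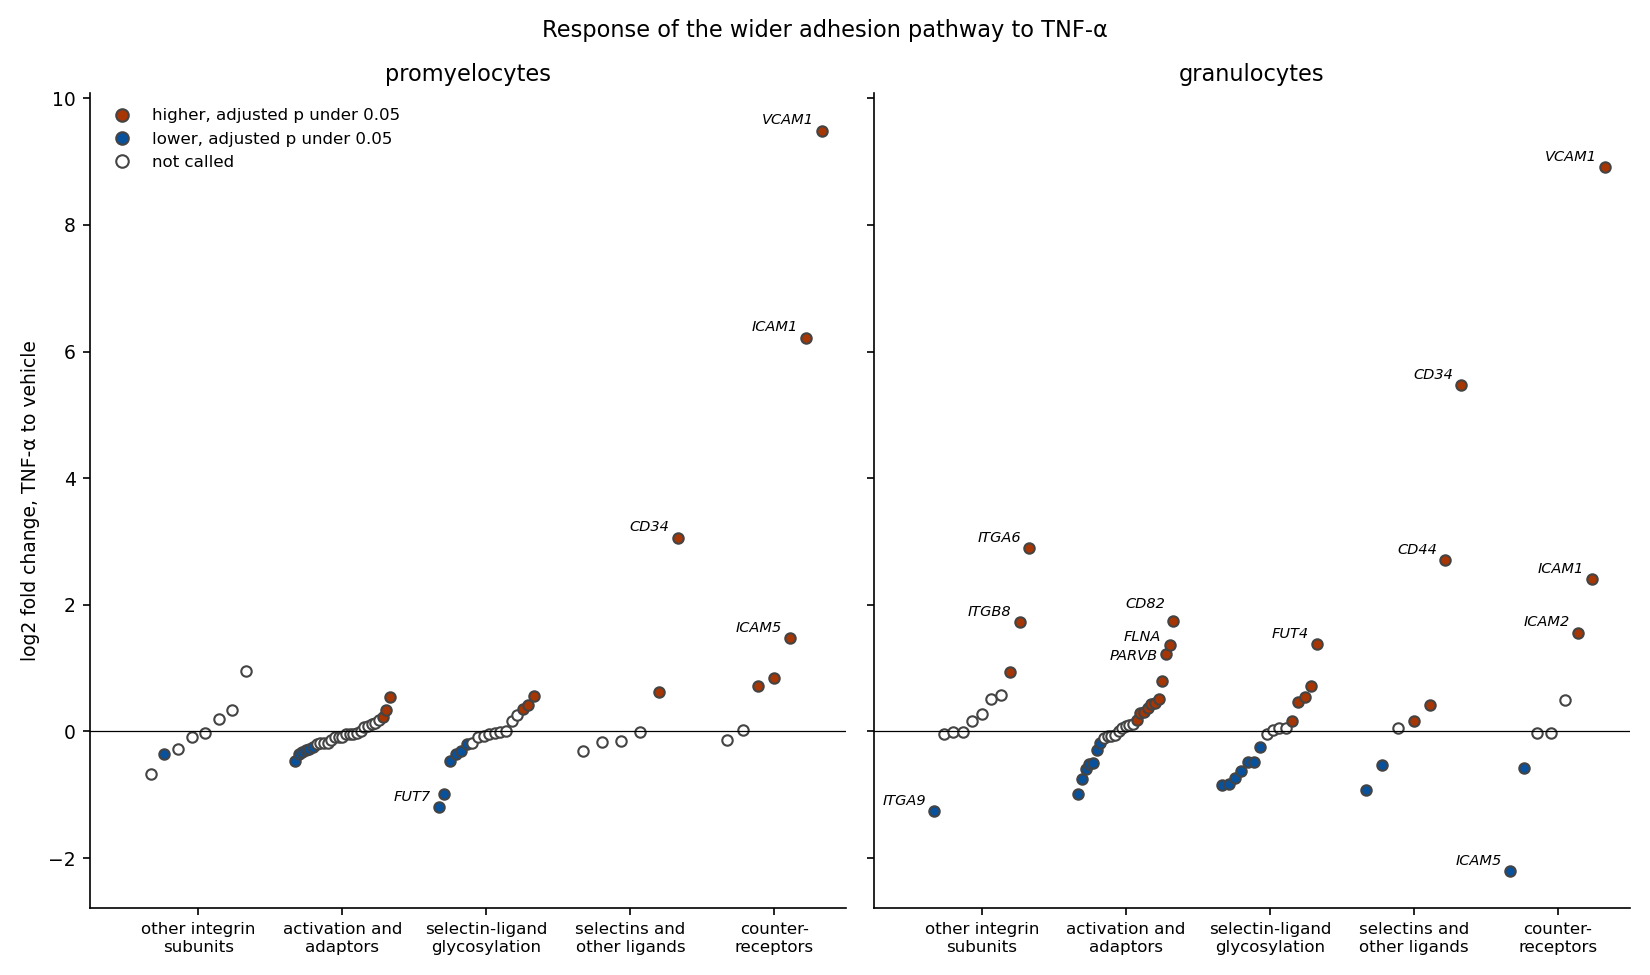
Log2 fold change from vehicle to TNF-α of each tested gene of 5 lists in promyelocytes (left) and granulocytes (right), filled where called, with names for called genes that changed by at least 1; fitted values of *CD34* and of *VCAM1* start from 0 to 6 counts per vehicle library. *VCAM1* lies highest in both cell types, followed by *ICAM1* in promyelocytes and by *CD34*, *ITGA6*, *CD44* and *ICAM1* in granulocytes.

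Of the counter-receptors of these integrins, 3 of 8 tested rose and 2 fell in granulocytes (median 0.24; 24.4% and 24.8% of all genes), and 5 of 7 rose in promyelocytes (median 0.85; 8.15% of all genes), or 3 without promyelocyte vehicle replicate 3 or TNF-α replicate 3. *ICAM1*, bound by LFA-1 and Mac-1, rose in promyelocytes from 1.31, 1.58 and 1.97 CPM to 125, 109 and 123 CPM (log2 fold change 6.22, SE 0.109, edgeR adjusted p = 3.36e-19). The granulocyte libraries rose from 132, 139 and 149.8 CPM to 825, 728 and 703 CPM (2.41, SE 0.0586, edgeR adjusted p = 3.59e-29), a smaller fold from a higher start, with a difference of the responses of -3.78 (edgeR interaction adjusted p = 6.4e-17). *VCAM1*, bound by VLA-4, had 0 to 2 counts in vehicle-treated promyelocytes, and TNF-α raised it at least 187-fold (edgeR adjusted p = 1.27e-15), and in granulocytes it went from 4 to 6 counts to 1898 to 2401 (8.91, edgeR adjusted p = 8.45e-37). *ICAM2* rose by 1.56 in granulocytes (edgeR adjusted p = 8.54e-11) and by 0.72 in promyelocytes (edgeR adjusted p = 0.000859). *ICAM5* fell by 2.20 in granulocytes (edgeR adjusted p = 9.38e-11) and rose by 1.47 in promyelocytes, from 3 to 10 counts to 12 to 23 (edgeR adjusted p = 0.0387). *ICAM3* and *F11R*, which binds LFA-1, were not called in either cell type. Thus the transcript of the ligand of VLA-4 rose while that of its α subunit, *ITGA4*, fell.

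Likeness to 5 of the genes was measured as the root mean square difference of log2 CPM after centring each gene over the 12 libraries (only genes whose log2 CPM averaged 1 or more were compared). For *ITGA4* the nearest were *CLTCL1* (0.0755), *GOLGA8N* (0.0876) and *FLI1* (0.0892), where the median gene differed by 0.50. *FLI1*, a transcription factor of blood cells, had means of 122.5 and 107 CPM in promyelocytes with vehicle and TNF-α and of 153 and 89.3 CPM in granulocytes. For *ITGB2* they were *NFAM1* (0.0770), *RHBDD2* (0.0863) and *HLX* (0.111), with a median gene at 1.53. For *SELPLG* they were *IRF5* (0.187), *SRGAP3* (0.188) and *TRIB2* (0.265), with a median gene at 0.983. *IRF5*, an interferon regulatory factor, had means of 3.85 and 2.04 CPM in promyelocytes and of 6.87 and 1.57 CPM in granulocytes, a fall with TNF-α in each.

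For *ITGAM* the nearest were *TRPM4* (0.149), *FBP1* (0.152) and *DEFA3* (0.164), with a median gene at 2.75, and for *ITGB7* they were *LILRB2* (0.216), *SRCIN1* (0.255) and *CR1* (0.262), with a median gene at 3.07. These 6 were at or under 23.3 mean CPM in vehicle-treated promyelocytes and at 38.7 to 938 in vehicle-treated granulocytes, so the distance between the cell types takes up most of the pattern. *DEFA3*, *GOLGA8N*, *NCF1* and *CR1* have near-identical copies or repeated segments in the genome, between which the counting may have divided reads, and their levels are uncertain.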

How the data were processed

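Total RNA of 12 HL-60/S4 cultures, depleted of ribosomal RNA, was sequenced as paired ends. The authors aligned the reads to hg38 with STAR 2.5.3a and counted read pairs per GENCODE v27 gene with featureCounts 1.5.2, and they deposited these counts without normalization; the file header lists primary alignments, both ends mapped, no chimeras and reverse-strand counting. Symbols were matched to 57577 identifiers and 711 had none.

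Each cell type was fitted alone in edgeR 4.0.16 (R 4.3.3; TMM, filterByExpr with a minimum count of 10 and a total of 15, quasi-likelihood test, prior count 0.125, Benjamini-Hochberg over all genes tested, threshold 0.05). SEs come from the fold change and the F statistic. Fold changes therefore use TMM factors of 6 libraries and CPM those of 12. The difference of the responses was an interaction contrast over 12 libraries and 4 groups. TPM used the deposited gene lengths. The floor used for bounds was 3 counts, or 0.0941 to 0.131 CPM depending on the library, and allows for counting error alone. Replicate pairs differed by 3.59 to 14.1 times sampling noise, so no library was counted as a repeat.

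Alternatives were DESeq2's size factors, no filter, DESeq2 1.42.0, the replicate number as a block, a threshold of 0.01, GC and length trends removed (lowess span 0.3), all 12 libraries in 1 fit, raw counts for the shares, and leaving out each library; TPM and CPM of library totals were added after seeing the data. The genes and lists were chosen with earlier results of these data known. Named genes were the 9, every other list gene called with an absolute log2 fold change of at least 1, the 3 most abundant genes of each list and the 3 nearest genes to *ITGAM*, *ITGB2*, *ITGA4*, *ITGB7* and *SELPLG*. Also named were the called granulocyte markers, the activation genes called in granulocytes and the glycosylation genes that fell there. Fits were tested on simulated data. Plots used matplotlib 3.10.9. RT-qPCR and public differentiation data were not analysed here.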

Additional observations from a re-analysis of the deposited data

Results flagged for a closer look

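The response to TNF-α differed between the cell types for 5 of the 9 genes, by edgeR's interaction test in a fit of 12 libraries. The cell types were treated in separate experiments, so cell type and experiment cannot be told apart in these differences. The test rests on the spread between flasks within each experiment. Granulocytes minus promyelocytes on the log2 scale, the difference was 0.78 for *ITGAX* (higher in 3 of 3 treated granulocyte libraries than in any vehicle library, overlapping in promyelocytes), 0.75 for *FERMT3* (the same pattern) and 0.39 for *ITGB2* (again the same pattern). It was -0.61 for *ITGA4* and -1.06 for *SELPLG*, both lower in 3 of 3 treated libraries of each cell type. These patterns are those of the CPM scale. On the TPM scale the *ITGA4* groups overlapped in promyelocytes and the *ITGB2* groups overlapped in granulocytes. The *FERMT3* groups in promyelocytes were apart on the TPM scale, at 185 to 195 with vehicle and 198 to 216 with TNF-α. The background for a call in the interaction test was 24.0% of genes.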

How the results depend on the processing

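In granulocytes the signs of the 9 fitted changes held in 7 other settings and in 6 fits that left out 1 library each, and so did the calls, except those of *ITGB7*. On TPM, a scaling chosen after seeing the data that moves the median of all genes by -0.24, *ITGB1* in granulocytes was at -0.079; with CPM of library totals (median -0.13) it was at 0.03. In promyelocytes, genes not called changed sign: *ITGAX* was at 0.004 with GC and length trends removed, *ITGB2* at -0.001 in 1 fit of 12 libraries and from -0.025 to 0.06 with 1 library left out, and *ITGAM* from -0.031 to 0.126. Removing GC and length trends raised the count of the 9 genes that rose in promyelocytes to 1 (*FERMT3*), the count with a negative difference of the responses, granulocytes minus promyelocytes, from 2 to 4 (*ITGAM* and *ITGAL* added) and the activation genes that rose in promyelocytes to 5. It also gave an interaction for *ITGB1* (0.18) and none for *ITGB2*. At a threshold of 0.01, 3 glycosylation genes fell and 3 counter-receptors rose in promyelocytes. Of selectins and other ligands in promyelocytes, DESeq2 gave 1 higher and 1 lower, and 1 fit of 12 libraries gave 1 lower. With 1 library left out, 0 to 1 of these were lower, 3 to 5 counter-receptors rose, and 2 to 4 selectins and other ligands rose in granulocytes. With raw counts in place of TPM the shares in granulocytes changed with TNF-α by 15.08 percentage points for *ITGAX*, -2.551 for *ITGAL*, 4.862 for *ITGB2* and -3.886 for *ITGB7*, against 14.03, -2.27, 5.83 and -5.05. The cause was not tested.

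Replicate numbers did not pair the samples: residuals of equal numbers correlated at -0.146 to -0.044 in promyelocytes and -0.067 to -0.013 in granulocytes. With the replicate block, calls over all genes went from 1324 higher and 1081 lower to 1012 and 821 in promyelocytes, and from 4135 and 4209 to 3837 and 3884 in granulocytes; *ITGA4* in promyelocytes (-0.22, adjusted p = 0.065) and *ITGB7* in granulocytes (-0.13, adjusted p = 0.081) were no longer called, and the other calls of the 9 genes were unchanged by it. Depth limits *ITGAM*, *ITGAX* and *ITGB7* in promyelocytes, at 82 to 213 counts per library.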
